A study of Drosophila melanogaster with 8 samples.

Results

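Long noncoding RNAs are transcripts that are spliced and polyadenylated like messenger RNAs in many cases but encode no known protein. In the fly head they include nuclear scaffolds such as Hsromega, a heat-inducible RNA around which the omega speckles of the nucleus assemble, and noe, a noncoding RNA of the nervous system. Most are known only by a CR number and have no described function, and many lie inside or against a protein-coding gene, so that reads of the pair can be hard to assign. The genes described here are the long noncoding RNA genes that were measured well enough to compare between genotypes. They are the genes whose name begins with lncRNA: (a prefix left out below), other than roX1 and roX2, the RNAs of the dosage compensation complex, and which had at least 50 reads in each of at least 4 of the 8 libraries. The genes were thus chosen by their read counts in the libraries compared below, and a level above the minimum is no finding. This rule kept 67 of the 13982 genes of the table, out of 1049 with that prefix. A further 980 were below the read minimum. At the edge of the rule, the fourth highest library had 50 reads for CR45004, CR44779 and CR44754, which were kept, and 47, 45 and 45 reads for CR43653, CR44608 and CR13130, which were not.

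The ND-75KD group expressed a short hairpin RNAi (HMS00853) against ND-75, the fly NDUFS1 homolog and an iron-sulphur subunit of mitochondrial complex I, under the pan-neuronal driver nSyb-Gal4 (genotype nSybGal4/ND-75 RNAi), and the Control group carried the driver alone over the w[1118] chromosome (nSybGal4/w[1118]). RNA was taken from the heads of adults aged 2 days, in 4 replicates per genotype that each pooled 20 heads, 10 of them male and 10 female. The study's text gives the driver stock as Tub-Gal80ts with nSyb-Gal4 in both genotypes, a repressor of Gal4 that the sample labels do not name, and describes the RNAi transgene as leaky without a driver. The driver is active in neurons, whereas a whole head also holds glia, fat body, muscle and hemocytes. In these bulk libraries fewer cells of a type and less RNA per cell cannot be told apart.

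Library totals were between 17448199 and 24071517 counts in ND-75KD and between 21758154 and 24680283 in Control. ND-75 itself averaged 306 ± 15.99 CPM (counts scaled by TMM to a common library size) in ND-75KD and 626 ± 64.9 CPM in Control (SD over 4 libraries of each genotype), or -1.03 as a log2 fold change (SE 0.11, adjusted p = 0.000148 by edgeR's quasi-likelihood test). Control replicate 2 stood apart, with 23.9% of its counts in the mitochondrial rRNA gene mt:lrRNA, against 4.58% to 7.40% in the ND-75KD libraries and 5.36% to 9.001% in the other Control libraries. The genotypes also differed at the pigment and eye genes y (log2 fold change 4.23), v (-1.94) and sev (-0.69). The study's stock list gives the RNAi stock with alleles of y, sc, v and sev and a transgene with y+ and v+ markers. It gives the nSyb-Gal4 stock with alleles of y and w. Such stock differences cannot be told apart from the knockdown in these groups. Of the marker lists, 11 of 15 neuronal genes were called higher in ND-75KD and 0 lower, with a summed level of 5279 to 5690 CPM in ND-75KD and 3669 to 4875 CPM in Control, and 5 of 9 fat body genes were called lower and 1 higher, at 4550 to 10181 CPM in ND-75KD and 26636 to 40201 CPM in Control. Among the other lists, 5 of 6 hemocyte genes were called lower and 0 higher (273 to 287 CPM in ND-75KD, 354 to 434 CPM in Control), 6 of 13 photoreceptor genes lower and 0 higher (32581 to 39571 CPM in ND-75KD, 42648 to 61543 CPM in Control), and 12 of 14 antimicrobial peptide genes higher and 0 lower (374 to 804 CPM in ND-75KD, 43.9 to 121 CPM in Control). In glia the counts were 1 higher and 3 lower of 11, and in muscle 1 and 1 of 11, with overlapping sums. No listed marker was at 0 in all libraries. The part of these marker lists in the results below was not tested.

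Levels of different genes can be compared only per length, for which the deposited FPKM values were used. Mean FPKM over the 8 libraries spanned 0.329 to 401 with a median of 4.999, and 23 of the 67 genes had at least 10 FPKM while 9 had less than 1. Transcript lengths in the table were 214 to 21710 bases with a median of 1374. CR42862 was the most abundant per length, at 421 FPKM in ND-75KD and 380 FPKM in Control. After it came CR34335, with 53.0 FPKM in ND-75KD and 168 FPKM in Control, and noe, with 57.5 FPKM in ND-75KD and 126 FPKM in Control. The remaining 5 of the highest 8 were CR31451, CR44832, CR44922, CR31781 and CR42491, with overall means of 68.2, 52.8, 47.4, 36.2 and 34.9 FPKM. The 67 genes together took 0.371% to 0.408% of the counts of the ND-75KD libraries and 0.206% to 0.379% of the Control libraries, the lowest share being that of Control replicate 2. CR42862 and the long Hsromega transcript alone made up 72.7% to 75.8% of these reads in ND-75KD and 58.2% to 76.3% in Control.

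**Figure D1:**
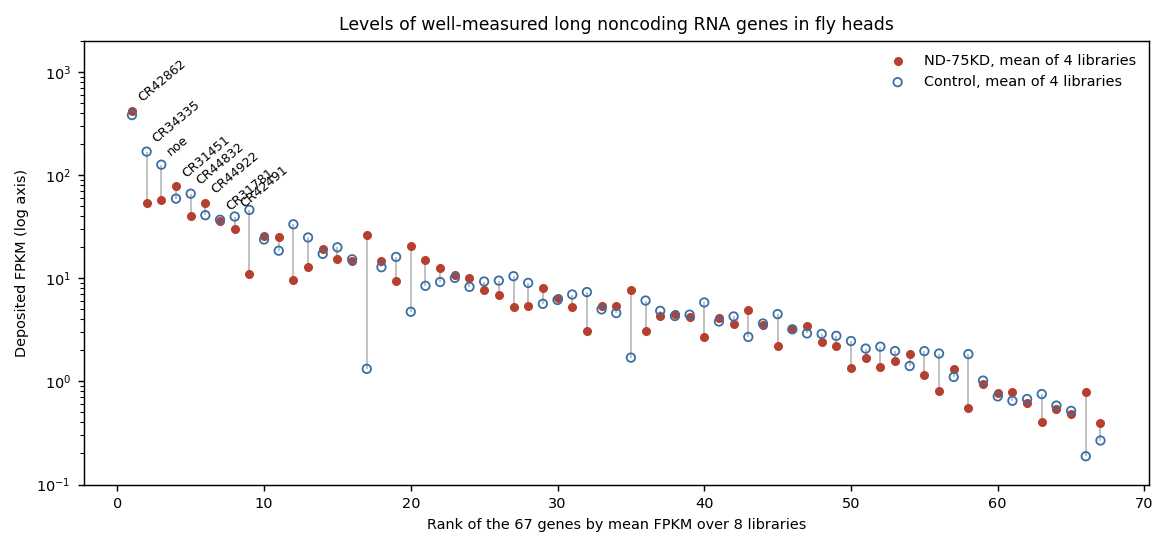
Mean deposited FPKM (log axis) of the 67 long noncoding RNA genes, ranked by their mean over all 8 libraries, with ND-75KD as filled points and Control as open circles, each the mean of 4 libraries. Levels run from 401 FPKM for CR42862 down to 0.329 FPKM, and the wide gaps between the genotypes belong to genes such as CR34335 (53.0 FPKM in ND-75KD, 168 FPKM in Control).

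All 67 genes passed the low count filter and were tested together with every other gene. A gene was called at an adjusted p under 0.05 in edgeR's quasi-likelihood test. On this basis 8 of the 67 were higher in ND-75KD heads, 17 were lower and 42 were not called, so that 37.3% were called beside 33.2% of all 9986 tested genes. By direction, 11.9% were called higher beside 14.3% of tested genes, and 25.4% were called lower beside 18.9% of tested genes. These shares were near the background, and no excess of calls can be read from them. The median log2 fold change was -0.11 over the 67 genes and -0.01 over all tested genes, and it was -0.00 for both without Control replicate 2. Among the 143 tested long noncoding RNA genes below the read minimum, 8 were called higher and 24 lower, with a median of -0.26. The read minimum was reached only in ND-75KD libraries by CR40469, CR44138 and CR45004, all called higher, and only in Control libraries by CR44644 and CR44946, both called lower, so that the rule itself required a difference in these 5. Of the 62 that reached it in libraries of both genotypes, 5 were called higher and 15 lower (32.3% called). These 62 were not free of the rule's effect. CR45973 and CR45533 reached it in 4 Control libraries but only 1 ND-75KD library. CR44042, CR45327 and CR46035 did so in 4 and 2, and all of these genes were called lower. Of the 42 genes with at least 50 reads in all 8 libraries, 28.6% were called, beside 33.2% of all tested genes.

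**Figure D2:**
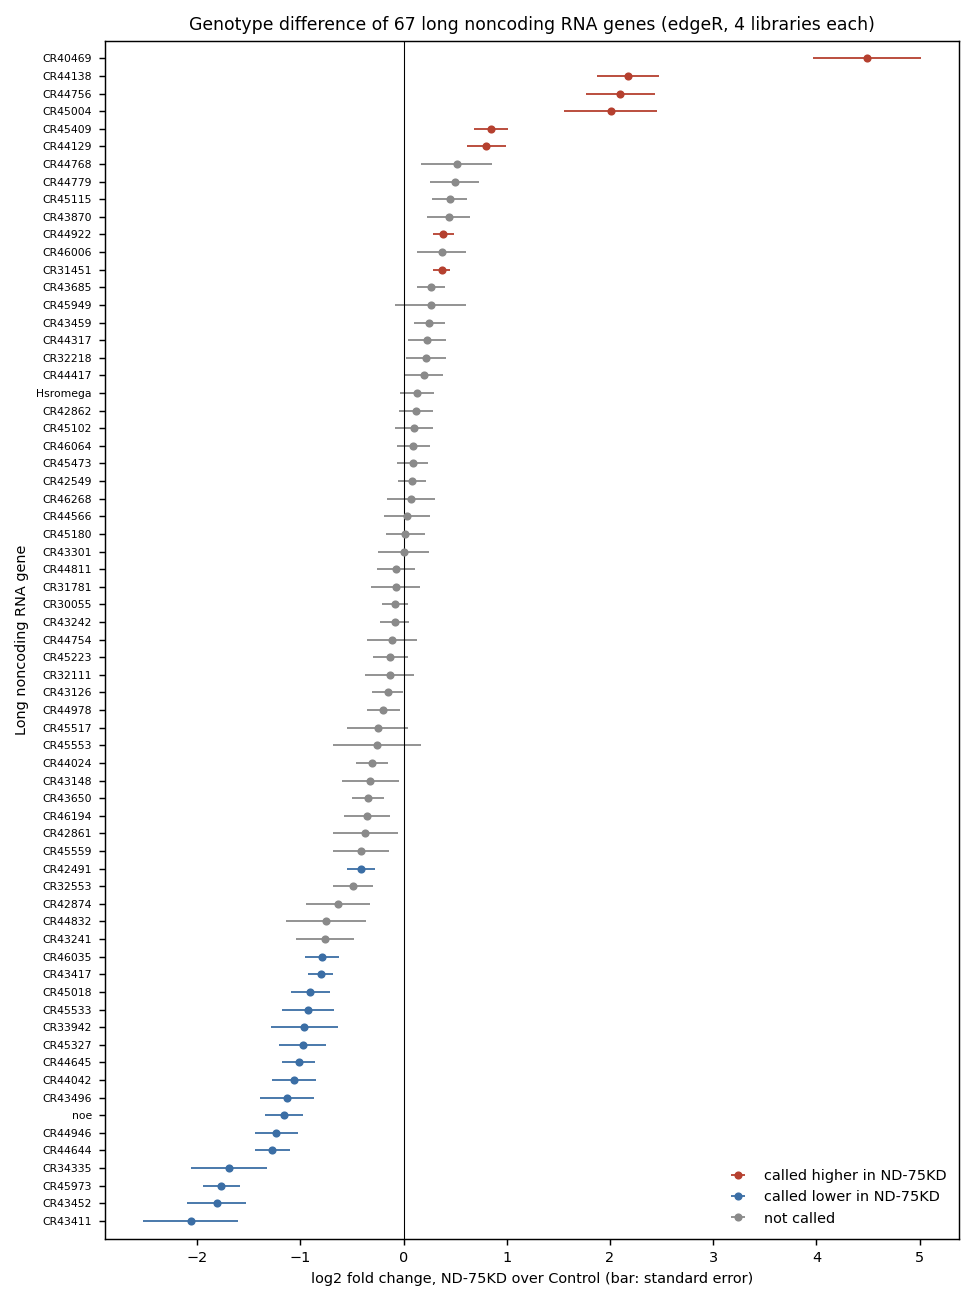
Log2 fold change of ND-75KD over Control with its standard error for each of the 67 genes, ordered by size, with called genes coloured (edgeR, 4 libraries per genotype). The 8 genes called higher lie between 0.37 and 4.49, and the 17 called lower between -2.06 and -0.41.

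Position against other genes divided the set almost evenly. By their spans in the table, 33 of the 67 genes overlapped no other gene and 34 overlapped at least 1. A coding gene was overlapped by 29 of them, 17 on the opposite strand only, 10 on the same strand only and 2 on both strands, and 19 lay wholly inside a coding gene. The other 5 overlapped a noncoding gene only. Of the 33 with no overlap, 2 were called higher and 5 lower (21.2% called). Of the 29 that overlapped a coding gene, 5 were called higher and 10 lower (51.7% called), and among the 17 with an opposite-strand coding partner alone the counts were 4 and 6. Over all tested genes 33.2% were called, 14.3% higher and 18.9% lower, and the difference between these groups of genes was not tested. Exon models were compared in Ensembl release 115, where 66 of the 67 genes had the same coordinates as in the table. Exon bases were shared with a coding gene by 15 of the 29, of which 2 were called higher and 5 lower, and 13 shared none, of which 3 were called higher and 4 lower. The library kit named in the methods marks no strand, and the strand setting of the read counting is not given in the sources used here. Where 2 genes overlap on opposite strands, their reads could thus not be told apart by strand. Unspliced reads of a coding gene could also enter the count of a gene inside its intron, and how far they did was not tested.

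**Figure D3:**
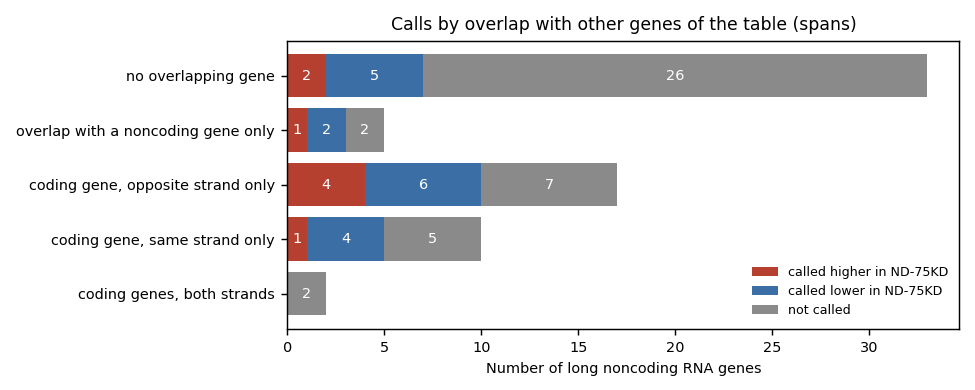
Number of the 67 genes called higher in ND-75KD, called lower and not called, by overlap of their spans with other genes of the table. Of the 33 with no overlapping gene 7 were called, and of the 17 with an opposite-strand coding partner alone 10 were called.

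Length and exon structure also varied within the set. Of 40 genes with a single exon block, 6 were called higher and 14 lower, and of 27 with several blocks, 2 were called higher and 3 lower. Of 24 genes up to 1000 bases, 3 were called higher and 9 lower, with a median log2 fold change of -0.39. In the 15 genes over 3000 bases the counts were 1 and 3, with a median of -0.11. Beside these counts stand the 14.3% of all tested genes called higher and the 18.9% called lower, and differences between the groups were not tested. Across all tested genes the fold change moved with length, with a median of -0.37 in genes of 65 to 801 bases and 0.23 in genes of 5882 to 71820 bases, and the part of length in the values of single genes was not tested beyond removing this trend. With the trend removed, 28 of the 67 were called, 24 of them among the 25 called before. Over all tested genes 1553 were then called higher and 1973 lower, beside 1429 and 1885 before.

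The largest difference among the genes called higher was that of CR40469 (FBgn0058469; X:122493-122706, plus strand), a 214-base gene near the tip of the X chromosome with no overlapping gene. It had 6.16, 4.00, 4.88 and 6.31 CPM in the ND-75KD libraries, against 0, 0.706, 0.234 and 0.162 CPM in the Control libraries. The genotypes were far apart, but the Control values rested on 0, 10, 5 and 4 reads. Its log2 fold change was 4.49 (SE 0.52, adjusted p = 0.000222 by edgeR's quasi-likelihood test), and it lay between 4.05, without Control replicate 1, and 5.33, without Control replicate 2, with 1 library left out. CR40469 lies 233803 bases from y, the body colour gene with a log2 fold change of 4.23. The RNAi transgene, on another chromosome, carries a y+ marker, so reads of y may come from either copy. Whether the difference of CR40469 came with the X chromosome of the RNAi stock cannot be told apart from the knockdown.

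The next 3 genes, each higher by about 2 log2 units, lay antisense inside a coding gene. CR44756 (2R:22318995-22320895, minus strand) lies inside Gp150, a leucine-rich repeat membrane protein that modulates Notch signalling, and shares no exon base with it. It had 35.1, 31.5, 38.4 and 30.4 CPM in ND-75KD, against 9.46, 10.2, 9.73 and 2.51 CPM in Control, so that Control replicate 4 was low within its group and all ND-75KD libraries were above all Control libraries. The log2 fold change was 2.10 (SE 0.33, adjusted p = 0.00112, edgeR), while Gp150 had 671 ± 39.4 CPM in ND-75KD and 580 ± 92.5 CPM in Control (0.21, adjusted p = 0.238) and was not called. CR44138 (3R:13376903-13377395, plus strand), inside CG9813 and likewise without shared exon bases, had 2.78, 2.75, 3.67 and 5.10 CPM in ND-75KD, against 0.655, 0.989, 1.08 and 0.526 CPM in Control. It rose by 2.17 on the log2 scale (SE 0.30, adjusted p = 0.000562, edgeR), and CG9813 had a log2 fold change of -0.06 and was not called. How far unspliced reads of Gp150 and CG9813 entered the counts of CR44756 and CR44138 was not tested.

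CR45004 (2L:20664882-20668605, plus strand) differed from these in that its host moved with it. It lies inside CG31678 on the other strand and shares 231 exon bases with it. It had 2.68, 3.45, 3.13 and 1.85 CPM in ND-75KD, against 0.860, 0.424, 1.26 and 0.162 CPM in Control, with a log2 fold change of 2.01 (SE 0.45, adjusted p = 0.00716, edgeR). CG31678 rose as well, with 170 ± 22.9 CPM in ND-75KD and 77.5 ± 11.97 CPM in Control (1.13, SE 0.14, adjusted p = 0.000278, edgeR). How far reads of CG31678 entered the count of CR45004 was not tested.

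The other 4 genes called higher had smaller differences. CR45409 (3L:8309351-8310512, minus strand) overlaps the 3′ end of the cleavage and polyadenylation factor gene Cpsf6 by 20 bases on the same strand, and had 5.06, 5.30, 6.59 and 4.95 CPM in ND-75KD, against 3.07, 2.61, 2.85 and 3.56 CPM in Control (0.85, SE 0.16, adjusted p = 0.00354, edgeR). CR44129 (X:16815495-16815945, minus strand), antisense inside CG4829, had 5.46, 3.60, 5.05 and 4.14 CPM in ND-75KD, against 3.07, 2.68, 2.48 and 2.22 CPM in Control (0.80, SE 0.19, adjusted p = 0.00869, edgeR). In both, the lowest ND-75KD library was above the highest Control library, and neither Cpsf6 (-0.08) nor CG4829 (-0.29) was called. The remaining pair were abundant and changed little. CR44922 (3R:4375084-4377600) had 119, 123, 140 and 135 CPM in ND-75KD, against 108, 87.7, 94.5 and 106 CPM in Control, a log2 fold change of 0.38 (SE 0.10, adjusted p = 0.0157, edgeR) that was not called without ND-75KD replicate 3 (adjusted p = 0.0562) or replicate 4 (adjusted p = 0.0501). CR31451 (3R:23983503-23985065) had 117, 117, 109 and 116 CPM in ND-75KD, against 90.9, 90.7, 82.2 and 92.6 CPM in Control (0.37, SE 0.08, adjusted p = 0.00679, edgeR). Neither difference was called when tested against a fold of 1.2. The first 67 bases of CR31451 are shared with the microRNA precursor gene mir-9381 on the same strand.

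Of the genes called lower, noe is the best known. It spans 3L:17400272-17401348 on the minus strand, inside blot, a gene of the neurotransmitter transporter family, on the same strand and without shared exon bases. noe had 61.9, 56.7, 49.0 and 67.8 CPM in ND-75KD, against 103, 188, 121 and 113 CPM in Control. Every ND-75KD library was below every Control library, and Control replicate 2 was the highest. The mean was 58.8 ± 7.98 CPM in ND-75KD and 131 ± 38.8 CPM in Control (SD over 4 libraries of each genotype), or -1.16 as a log2 fold change (SE 0.19, adjusted p = 0.00124, edgeR), and with 1 library left out the value ran from -1.23 to -0.93, called each time. blot had 51.9 ± 2.08 CPM in ND-75KD and 49.1 ± 5.29 CPM in Control (0.08, adjusted p = 0.565) and was not called.

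The largest differences on the lower side were those of CR43411, CR43452, CR45973 and CR34335. CR43411 (2L:14613258-14613621), 364 bases antisense inside osp, a gene for an actin-associated protein, had 4.82, 3.00, 3.55 and 3.95 CPM in ND-75KD, against 5.49, 33.1, 15.95 and 10.4 CPM in Control. The groups did not overlap, but the Control libraries spread widely with replicate 2 at the top, and the log2 fold change was -2.06 (SE 0.46, adjusted p = 0.00702, edgeR) over all libraries and between -2.31 and -1.46 with 1 left out, the smallest being without Control replicate 2. CR34335 (X:3545750-3546110), inside DIP-alpha, an immunoglobulin-domain receptor of synaptic partner recognition, on the same strand, was alike in this, with 18.5, 13.2, 19.4 and 21.5 CPM in ND-75KD, against 34.1, 113, 58.3 and 30.8 CPM in Control (-1.69, SE 0.37, adjusted p = 0.00655, edgeR). Control replicate 2 was again the highest. Neither osp (0.04) nor DIP-alpha (0.24) was called, and neither shares exon bases with its noncoding gene.

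CR45973 had the smallest adjusted p of the 67. It reached the read minimum in 4 Control libraries and 1 ND-75KD library, so that its Control libraries alone met the rule. It lies at 3L:20404270-20407558, where 456 exon bases are shared with CG13248 on the other strand. It had 1.49, 1.90, 1.42 and 2.03 CPM in ND-75KD, against 5.49, 5.72, 5.33 and 6.83 CPM in Control, with little spread in either group (-1.77, SE 0.18, adjusted p = 0.00011, edgeR). CG13248 (-0.30, adjusted p = 0.142) was not called. CR43452 (3R:20678183-20679079), which overlaps no gene, had 8.59, 5.10, 7.09 and 11.8 CPM in ND-75KD, against 23.0, 45.1, 25.3 and 22.2 CPM in Control (-1.81, SE 0.29, adjusted p = 0.0011, edgeR).

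A pair of antisense neighbours on chromosome 2R fell together. CR44644 (2R:20505895-20506395, minus strand) and CR44645 (2R:20506195-20506895, plus strand) overlap each other by 201 bases. CR44644 had 1.69, 1.5004, 1.25 and 1.44 CPM in ND-75KD, against 3.36, 3.53, 3.56 and 3.76 CPM in Control (-1.27, SE 0.17, adjusted p = 0.000492, edgeR). CR44645 had 3.38, 4.00, 3.17 and 3.47 CPM in ND-75KD, against 6.10, 6.99, 6.41 and 8.82 CPM in Control (-1.02, SE 0.16, adjusted p = 0.00118, edgeR). The shared exon bases mean that the pair are not independent measurements. The nearest coding gene to both was Obp57a, an odorant-binding protein gene, 137 bases from CR44644, and it fell too, with 15.3 ± 2.12 CPM in ND-75KD and 27.3 ± 4.22 CPM in Control (-0.84, SE 0.14, adjusted p = 0.00151, edgeR).

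CR43496 (X:6758610-6759491, minus strand) was the only called gene whose coding partner was called in the opposite direction. It lies antisense inside sov, which encodes a zinc finger protein of heterochromatin. It had 1.99, 2.60, 2.30 and 2.07 CPM in ND-75KD, against 3.73, 7.98, 4.21 and 3.96 CPM in Control (-1.13, SE 0.26, adjusted p = 0.00795, edgeR), with Control replicate 2 far above the rest. sov rose, with 66.5 ± 3.35 CPM in ND-75KD and 41.9 ± 11.3 CPM in Control (0.66, SE 0.18, adjusted p = 0.0171, edgeR), and Control replicate 2 was its lowest library at 25.6 CPM. Both remained called without that library. Exons of this pair were not compared, since sov's identifier did not match release 115.

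CR44946 (3R:18374536-18376497) and CR44042 (2R:1348167-1349167) overlap no coding gene. CR44946 had 1.44, 1.55, 1.25 and 1.74 CPM in ND-75KD, against 2.82, 3.81, 3.04 and 4.45 CPM in Control (-1.23, SE 0.21, adjusted p = 0.00174, edgeR). CR44042 had 2.58, 2.00, 2.17 and 1.55 CPM in ND-75KD, against 4.34, 5.02, 4.82 and 3.19 CPM in Control (-1.06, SE 0.21, adjusted p = 0.00414, edgeR). The groups did not overlap in either gene. CR42491 (X:762615-763810) had 20.8, 19.9, 20.2 and 24.8 CPM in ND-75KD, against 28.4, 35.7, 27.3 and 23.0 CPM in Control, with 1 overlapping library, and its log2 fold change of -0.41 (SE 0.14, adjusted p = 0.0426, edgeR) was called in only 2 of the 8 fits with a library left out. It lies inside the ribosomal protein gene RpL22 on the same strand and shares 377 exon bases with it, and RpL22 fell by 0.90 on the log2 scale (SE 0.13, adjusted p = 0.000622, edgeR). RpL22 was far more abundant, at 415 ± 29.7 CPM in ND-75KD and 772 ± 106 CPM in Control. How far its reads entered the count of CR42491 was not tested.

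A further 6 genes called lower fell outside the rule for named genes and were chosen after their values were seen. CR46035 (-0.79), antisense inside osa, a subunit gene of the SWI/SNF (BAP) chromatin remodeller, CR43417 (-0.81), CR45533 (-0.93) and CR45327 (-0.98), which overlaps the Paf1 complex gene Rtf1, were called in each of the 8 fits with a library left out. CR45018 (-0.90) was also called in each, and lies inside the inositol trisphosphate kinase gene IP3K2 on the same strand, with 1433 shared exon bases. IP3K2 had 54.3 ± 4.78 CPM in ND-75KD and 110 ± 11.7 CPM in Control (-1.02, SE 0.11, adjusted p = 0.000117, edgeR). How far reads of IP3K2 entered the count of CR45018 was not tested. CR33942 (-0.96, adjusted p = 0.0426, edgeR) was called in only 1 of the 8 fits. It had 7.25, 5.35, 5.76 and 6.17 CPM in ND-75KD, against 11.7, 21.4, 9.36 and 5.86 CPM in Control, with Control replicate 4 within the range of the ND-75KD libraries.

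**Figure D4:**
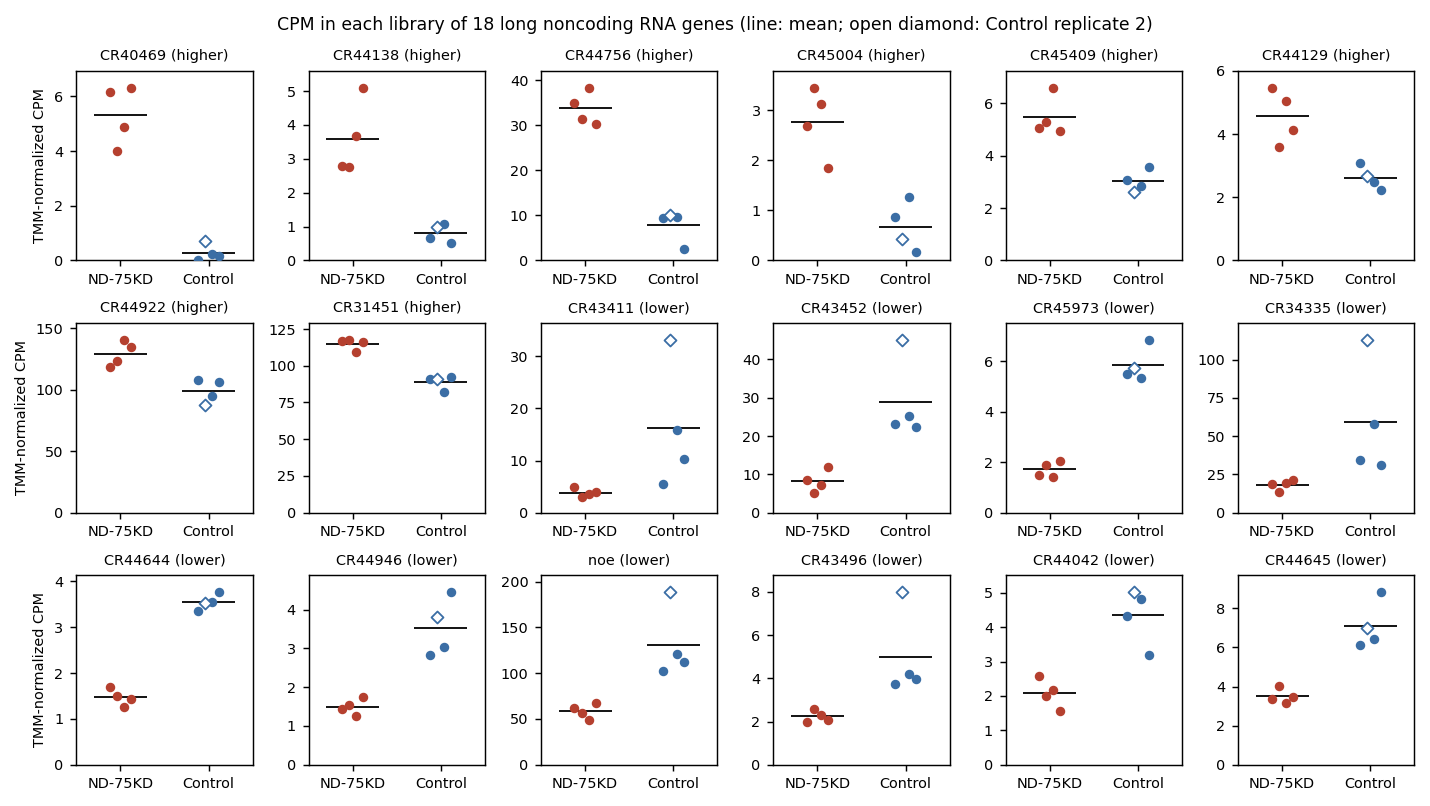
TMM-normalised CPM of each library (points), with the group mean as a line, for the 8 genes called higher and the 10 named genes called lower whose libraries do not overlap, ND-75KD left of Control, with Control replicate 2 as an open diamond. In each panel all 4 ND-75KD libraries lie on one side of all 4 Control libraries, and Control replicate 2 is the highest point of CR43411, CR43452, CR34335, noe, CR43496 and CR44042.

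All 8 genes called higher and 15 of the 17 called lower had ND-75KD libraries that did not overlap the Control libraries, the exceptions being CR42491 and CR33942. Over the 67 genes the libraries were separate in 9 with ND-75KD higher and in 16 with ND-75KD lower, beside 17.2% and 19% of all tested genes. Of the 25 called genes, 22 were called in each of the 8 fits with a library left out, 7 higher and 15 lower, and the exceptions were CR44922, CR33942 and CR42491.

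The most abundant genes included several with no call. Hsromega (3R:21296127-21317836) had 332, 354, 464 and 431 CPM in ND-75KD, against 278, 368, 452 and 349 CPM in Control. The groups overlapped, the log2 fold change was 0.13 (SE 0.16, adjusted p = 0.565, edgeR), and it was -0.21 with the length trend removed, so that the direction flipped with that setting. In the same libraries 12 of 15 tested heat shock genes were called lower and 0 higher, with a median log2 fold change of -1.39. CR42862 (3L:224106-230964) had 2184, 2331, 2281 and 1969 CPM in ND-75KD, against 2178, 1472, 1916 and 2495 CPM in Control (0.12, SE 0.17, adjusted p = 0.598, edgeR), with Control replicate 2 the lowest of all. It overlaps CG33229 on the same strand by 1500 bases, 246 of them shared exon bases. CG33229 had 60.9 ± 2.45 CPM in ND-75KD and 60.4 ± 12.3 CPM in Control (0.02) and was not called. How far its reads entered the count of CR42862 was not tested.

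CR31781 and CR44832 showed how much of the spread lay in the Control group. CR31781 (2L:16869346-16878300) had 88.7, 92.5, 93.8 and 86.7 CPM in ND-75KD, against 60.1, 155, 92.5 and 75.0 CPM in Control (-0.08, SE 0.24, adjusted p = 0.82, edgeR). CR44832 (X:5790952-5791536) had 22.7, 21.6, 20.3 and 23.6 CPM in ND-75KD, against 12.9, 70.3, 40.05 and 26.6 CPM in Control, a log2 fold change of -0.75 (SE 0.39, adjusted p = 0.155, edgeR) that was called only without Control replicate 1 (-0.997, adjusted p = 0.0171). In both the ND-75KD libraries were close together and the Control libraries reached below and above them. Over the 42 genes without a call, log2 fold changes were between -0.76 and 0.51, with 20 above 0 and 22 below, and standard errors were between 0.12 and 0.42 with a median of 0.19, so that moderate differences could not be detected in many of them.

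Control replicate 2 was the highest Control library in 33 of the 67 genes (49.3%), compared with 36.9% of all tested genes, and in 9 of the 17 called lower. Without it, 14 of the 67 genes were called higher and 15 lower, beside 8 and 17 with it, while over all tested genes 1596 were called higher and 1931 lower, beside 1429 and 1885. The calls gained were all higher: CR45115, CR43870, CR46006, CR44317, CR44417 and CR45102, of which CR43870 had the smallest adjusted p (0.70, adjusted p = 0.00191, edgeR). Named after their values were seen, these 6 genes had log2 fold changes between 0.10 and 0.44 over all libraries.

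A tested coding partner existed for 14 called genes, taking the partner with the most shared bases. It was called in the same direction in 3 of them, CR42491 with RpL22, CR45018 with IP3K2 and CR45004 with CG31678, all 3 of which share exon bases. It was called in the opposite direction in 1, CR43496 with sov, and was not called in the other 10, so that 4 of 14 partners were called beside 33.6% of all tested protein-coding genes. Of the 12 genes without a call that had a tested coding partner, 4 had a partner of most shared bases that was called higher and 0 one that was called lower. CR44779, without a call, also holds a smaller coding gene on its own strand, CG14629, which shares no exon base with it and was called lower (-1.66, SE 0.15, adjusted p = 6.13e-05, edgeR). CG14629 was named after its values were seen.

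**Figure D5:**
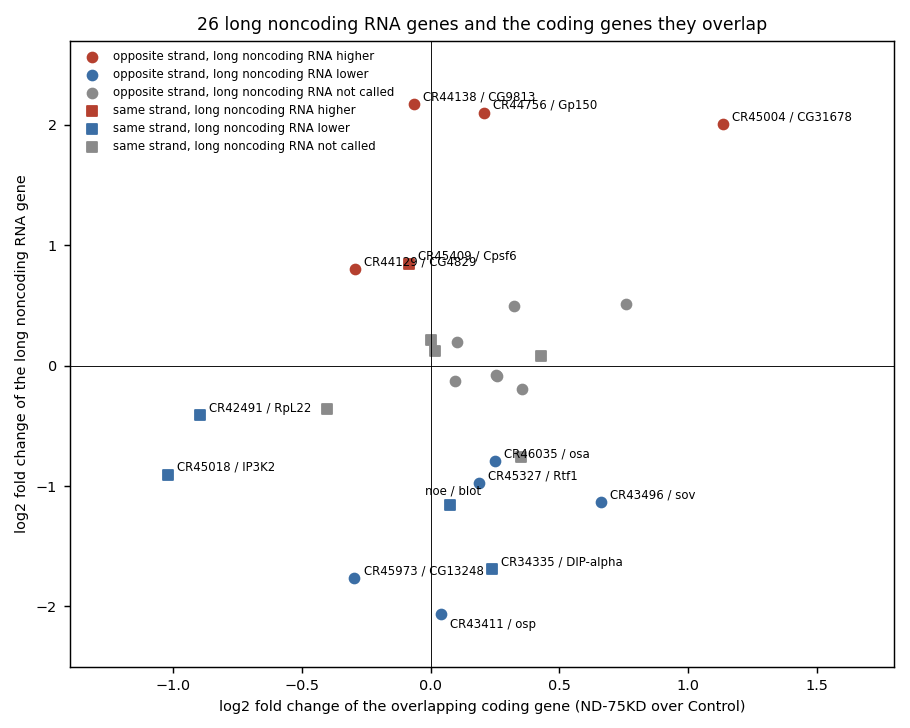
Log2 fold change of 26 long noncoding RNA genes against that of the coding gene sharing most bases with them, both ND-75KD over Control, circles for opposite and squares for same strand, with called noncoding genes coloured and named. For the 14 named points, 10 partners lie between -0.30 and 0.25 and were not called, and CG31678, sov, RpL22 and IP3K2 lie outside that range and were called.

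For the 38 genes that overlapped no coding gene, the nearest coding gene was 11 to 45560 bases away, with a median of 490.0 bases. Of the 10 called genes among them, the nearest coding gene was called in the same direction for 4, in the opposite direction for 0, was not called for 5 and was not tested for 1. The 4 were CR44644 and CR44645, which share Obp57a, CR43452 with CG4000, and CR45533 with CG11368. Beside these counts, 33.6% of all tested protein-coding genes were called, 14.5% higher and 19.1% lower. CG4000, 832 bases from CR43452 on the other strand, had 345, 350, 263 and 427 CPM in ND-75KD, against 907, 1876, 1190 and 1280 CPM in Control (-1.92, SE 0.23, adjusted p = 0.000237, edgeR), so that it fell about as far as CR43452 and, like it, had its highest level in Control replicate 2. CG11368, 2090 bases from CR45533, had a log2 fold change of -1.08 (SE 0.27, adjusted p = 0.0117, edgeR). Of the 28 genes without a call, the nearest coding gene was called higher for 4, called lower for 2, not called for 16 and not tested for 6. These counts stand beside the same shares of protein-coding genes.

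By chromosome, the 67 genes were spread over X (15), 2L (11), 2R (13), 3L (11), 3R (16) and 4 (1). On X 2 were called higher and 5 lower, on 2R 1 and 6, on 3R 3 and 3, on 3L 1 and 2, and on 2L 1 and 1, beside 14.3% of all tested genes called higher and 18.9% called lower. With so few genes on each arm no pattern by chromosome can be read from these counts. The gene on chromosome 4, CR44024, was not called, with 19.3 ± 1.37 CPM in ND-75KD and 23.8 ± 5.78 CPM in Control.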

How the data were processed

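RNA from adult heads was measured in 4 ND-75KD and 4 Control libraries. Per the labels and methods, paired-end reads were cleaned (fastp) and aligned (HISAT2), and the authors deposited read counts per gene from featureCounts, with versions and strand setting not given in the sources used here. The deposited FPKM values are the authors' counts scaled to gene length and library size, and the deposited signal values are counts the authors divided by 1 DESeq2 size factor per library. The deposited log2 fold changes and p-values are the authors' own DESeq2 comparison and were not used.

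The quasi-likelihood fits used edgeR 4.0.16 (R 4.3.3). After filterByExpr (minimum count 10, minimum total 15) and TMM scaling, genotypes were compared by the quasi-likelihood test with Benjamini-Hochberg adjustment over 9986 genes, with no covariate. Unless another setting is named, adjusted p values come from these fits. The common biological coefficient of variation was 0.171. The fits were tested on simulated data. Replicates are separate pools of heads, and p values reflect how far such pools vary.

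The members and lists were chosen with earlier results of these data known. Named genes were members with a name other than a CR number, the up to 10 higher and 10 lower called members with the largest change and separate libraries, the 8 with the highest mean FPKM, and their coding partners. Overlaps were taken from the spans in the deposited table. Shared exon bases came from Ensembl release 115. The alternatives tried were a DESeq2 1.42.0 fit, edgeR with upper quartile scaling or with size factors from DESeq2, all genes unfiltered, at least 10 reads in every library, removal of the trend on gene length (loess span 0.5), the replicate number as a block, a tested fold of 1.2, each library left out, and stricter read minimums. Promoter sequences were not analysed here.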

Additional observations from a re-analysis of the deposited data

Results flagged for a closer look

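In 48 groups of 4 libraries (2 genotypes of 24 genes), 5 had 1 library far from the other 3. The genes share the same 8 libraries, and many were named because their genotypes were separate. This count can thus not be set against a rate by chance. ND-75 had its lowest ND-75KD level in replicate 3, at 282 CPM, against 312 to 316 CPM in the other 3. CR31451 was lowest in the same library, at 109 CPM, with the others between 116 and 117 CPM. CR44756 had 2.51 CPM in Control replicate 4, with the others between 9.46 and 10.2 CPM. Control replicate 2 held the highest Control level of CR43452, at 45.1 CPM with the others between 22.2 and 25.3 CPM, and of CR43496, at 7.98 CPM with the others between 3.73 and 4.21 CPM. It was also the library with 23.9% of counts in mt:lrRNA, and the part of that share in these values was not tested.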

How the results depend on the processing

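No called gene reversed under any alternative run. Of the named genes without a call, Hsromega (-0.21 beside 0.13) and CR42862 (-0.05 beside 0.12) changed sign with the length trend removed, and CR31781 (-0.08) did without Control replicate 2 (0.26) and with the replicate block (0.01). Of the 67 genes, 26 were called by DESeq2, 24 with upper quartile scaling, 25 with size factors of DESeq2, 25 without a filter and 23 with at least 10 reads in every library (with CR40469 and CR45004 then not tested). Over all genes, the counts called higher and lower were 1702 and 2024 by DESeq2 and 1647 and 1735 with upper quartile scaling. They were 1495 and 1828 with size factors of DESeq2, 1356 and 1882 without a filter, and 1528 and 1654 with at least 10 reads in every library. Against a fold of 1.2, edgeR called 696 tested genes higher and 1121 lower, beside 1429 and 1885, and 1 gene with no overlap higher, beside 2. Asking for 50 reads in all 8 libraries kept 42 genes, of which 3 were called higher and 9 lower. That was 7.1% higher and 21.4% lower, beside 14.3% and 18.9% of all tested genes. Among the 22 of them with no overlap, 1 was higher and 2 lower. Asking for 100 reads in 4 libraries kept 39, with 4 higher and 8 lower, and 1 and 2 among the 21 with no overlap. These counts stand beside the same 14.3% and 18.9% of all tested genes. With 1 library left out, the number of all tested genes called higher lay between 931 and 1723, that of the 67 genes called higher between 7 and 14, and that of genes with no overlap called higher between 1 and 6. The last 2 counts were highest without Control replicate 2, and all 3 were lowest without ND-75KD replicate 3. The cause of these shifts was not tested.

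Same-numbered libraries did not deviate together (r between -0.112 and 0.0264, beside -0.0806 to 0.108 for libraries of different number). The labels do not say whether the numbers pair libraries, and this was not tested further. With the replicate number as a block, 25 of the 67 genes were called, 23 of them shared. Over all tested genes the block left 1154 called higher and 1553 lower, beside 1429 and 1885 without it. The lowest counts behind a called gene were the 0 to 10 reads of CR40469 in the Control libraries.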

Other observations

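roX1 and roX2, left out by the rule, were not called. roX1 had 233 ± 18.5 CPM in ND-75KD and 265 ± 32.7 CPM in Control (log2 fold change -0.19, adjusted p = 0.219, edgeR), and roX2 had 13.5 ± 2.73 CPM in ND-75KD and 16.8 ± 2.74 CPM in Control (-0.31, adjusted p = 0.175, edgeR). The microRNA precursor gene mir-9381, at the start of CR31451, had 1.44 ± 0.181 CPM in ND-75KD and 0.637 ± 0.390 CPM in Control, with a log2 fold change of 1.09 (adjusted p = 0.0492, edgeR) that was called in 2 of the 8 fits with a library left out. Its reads and those of CR31451 were not told apart where the 2 overlap.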
